A study of Mus musculus with 16 samples.

Results

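The V(D)J regions of the mouse antibody genes were the regions examined: the D-J and V parts of the heavy chain locus Igh on chromosome 12, the kappa light chain locus Igk on chromosome 6 and the lambda light chain locus Igl on chromosome 16. A junction belonged to them when its prey position, the genomic base joined to the break, lay in one of 4 intervals of build mm9. Of 141167 junctions, 33479 lay outside chromosome 15, which carries the break, and 327 of those (0.977%) fell in the 4 regions. Igh D-J (chr12:114664839-114783335) held 92, Igh V (chr12:114783336-117342135) held 37, Igk (chr6:67217836-70738026) held 169 and Igl (chr16:18806908-19772593) held 29.

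HTGTS, a sequencing method for translocations across the genome, recovered the genomic ends that joined to a fixed DNA break. Splenic IgM+ B cells from 129sv mice (6 to 8 weeks old) carried 25 sites for the nuclease I-SceI within the first intron of Myc, on 1 allele, and a GFP-marked retrovirus supplied the nuclease. Cells of all groups had these sites and this virus. Under anti-CD40 (1 μg/mL) with IL4 (20 ng/mL), infected at 24 h and harvested at day 4, there were 4 WT, 3 ATM-/- and 3 WT libraries with KU55933, an inhibitor of the ATM kinase, at 10 μM from infection onwards. Under RP105 (2 μg/mL), infected at 48 h and harvested at day 5, there were 3 libraries labelled WT and 3 labelled ATM-/-. The labels do not say whether libraries of a group came from separate mice, so p-values measure the spread between these libraries, which may be technical.

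B cells build each antibody gene by joining separate V, D and J segments in the heavy chain and V and J segments in the light chains. The RAG nuclease cuts beside each segment at a recombination signal that begins with the heptamer CACAGTG, and this happens in bone marrow precursors, so splenic B cells carry rearranged loci. In activated B cells the deaminase AID acts on switch regions, each of which lies upstream of a constant gene of Igh, and on rearranged V exons and the DNA downstream of them. ATM is a kinase that signals double-strand breaks and helps to hold broken ends together until they are joined.

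The sequences below are 5 short stretches, shown because they hold narrow groupings of junctions or junctions near a recombination signal. They were read from the genome letters in the deposited files (mm9) and run 5′ to 3′. In the stretch at the start of Igh D-J and in the stretch at the J segment known as JH4, capitals mark the bases at which preys on the printed strand began, and preys on the opposite strand are not marked. The former is the plus strand of chr12:114664839-114665038 and the latter the minus strand of chr12:114666707-114666790, the direction in which Igh is read.
Start of Igh D-J: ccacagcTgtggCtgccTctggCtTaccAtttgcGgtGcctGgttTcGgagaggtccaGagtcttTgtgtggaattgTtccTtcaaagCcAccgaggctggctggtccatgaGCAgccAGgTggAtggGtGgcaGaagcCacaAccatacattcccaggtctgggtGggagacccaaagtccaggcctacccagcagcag
JH4: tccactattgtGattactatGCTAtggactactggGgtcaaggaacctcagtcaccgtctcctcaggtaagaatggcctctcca

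The other stretches show the heptamer, searched as CACAGTG and its reverse complement CACTGTG, in capitals on the plus strand. They are a D segment at chr12:114708896-114708972, the junctions labelled Jk5 at chr6:70673837-70674051 and the edge of the densest Igl stretch at chr16:19067146-19067218.
D segment: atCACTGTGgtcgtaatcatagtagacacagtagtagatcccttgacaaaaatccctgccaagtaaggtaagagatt
Jk5: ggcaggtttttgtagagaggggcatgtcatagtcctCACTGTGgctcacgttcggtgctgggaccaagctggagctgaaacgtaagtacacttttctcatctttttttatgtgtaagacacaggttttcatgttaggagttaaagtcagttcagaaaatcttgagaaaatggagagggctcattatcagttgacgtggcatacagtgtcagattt
Igl: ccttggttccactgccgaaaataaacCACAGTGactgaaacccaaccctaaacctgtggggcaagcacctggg
In the D segment both junctions, 1 from the library labelled WT RP105 replicate 2 at 114708900 and 1 from KU55933 replicate 2 at 114708902, began inside the heptamer. At the Igl stretch, KU55933 replicates 2 and 1 gave plus-strand junctions at 19067152 and 19067154, shortly before a heptamer. A heptamer lay in the 17 bases around the prey start of 3 of the 327 junctions (0.917%) and of 0.311% of the other junctions outside chromosome 15. The third of these was an Igk junction at 69913306 from KU55933 replicate 2. It lay within the aligned prey of 22 junctions (6.73%), 14 of them among the 67 junctions of the Igk J-C segment described further on, and of 3.56% of the others. A match shows letters in a window and not a cut by RAG.

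Each library held 4484 to 18264 junctions, of which 586 to 5604 lay outside chromosome 15, and shares below are percentages of the latter. The RP105 libraries do not follow their genotype labels in the way the anti-CD40/IL4 libraries do. On chromosome 12 centromeric of Igh, the share was 2.60% to 4.07% in WT and 7.59% to 10.3% in ATM-deficient libraries under anti-CD40/IL4, but 11.3% to 12.3% in libraries labelled WT and 3.63% to 5.71% in those labelled ATM-deficient under RP105. Every direction between genotypes under RP105 below therefore rests on the label. The same holds for each comparison of RP105 with anti-CD40/IL4 within a genotype and for the interaction. The WT and ATM-deficient anti-CD40/IL4 libraries were read on a 454 sequencer and all others on a MiSeq, so inhibitor or stimulus and sequencer cannot be told apart. Of the 327 junctions, 8 (2.45%) shared prey position and strand with a junction of another library, at 4 positions. Among all junctions outside chromosome 15 the share was 5.31%. At 114664873 and 114664951 the libraries came from different runs, and at the latter both prey ends were identical. At the other two (114670072 in both RP105 replicates 3, and 70673701 in KU55933 replicates 1 and 2) the libraries shared a run, and both prey ends were identical too.

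**Figure D1:**
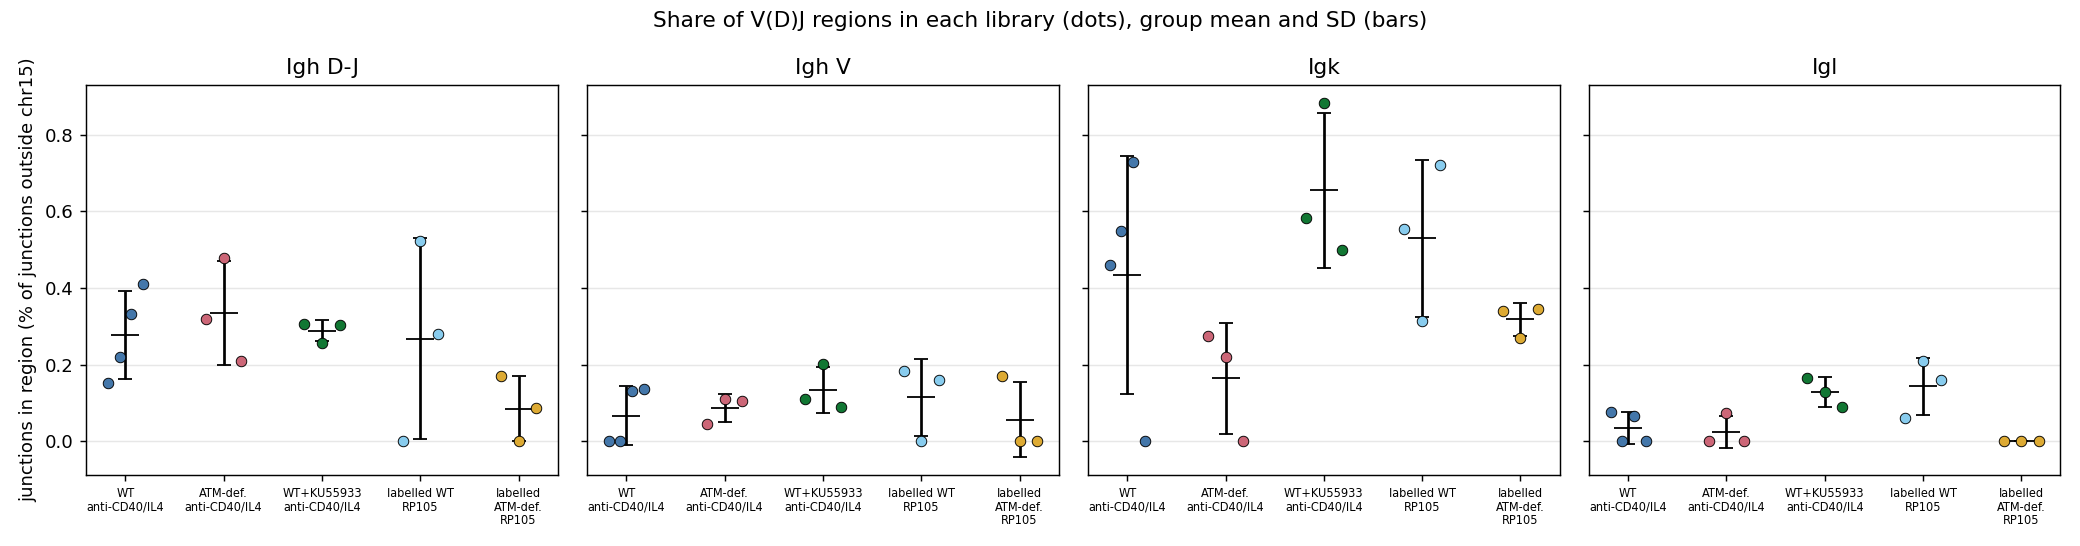
Share of junctions outside chromosome 15 (y axis, percent) in each of the 4 regions, by group on the x axis. Each dot is a library, and the bar gives the group mean and SD. Igk reaches 0.884% in an inhibitor library and is 0 in 2 libraries, while Igl is 0 in all 3 libraries labelled ATM-deficient under RP105.

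Igh D-J held far more junctions than its length would give at the density of the rest of the genome. The log2 ratio of its density to that of the genome outside chromosome 15 and outside the antigen receptor loci was 5.79 ± 1.13 (SD, n = 16). A pseudocount of 0.5 junctions was added to the region, and 2 of the 16 libraries, both RP105, had 0 junctions. In so short a region the pseudocount alone puts every one of these libraries above 0. That 16 of 16 lay above 0 was thus fixed in advance. So was the two-sided exact sign-flip permutation p of 3.05e-05, the smallest it can give, and neither is a test here. As observed minus expected junctions, with no pseudocount, the mean was 5.66 per library and 14 of 16 lay above 0 (two-sided exact sign-flip permutation, p = 0.000488 adjusted over 4 regions). By count, 92 junctions stood against 1.43 at that density.

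In D-J, WT libraries under anti-CD40/IL4 had 2, 2, 5 and 3 junctions, shares of 0.153%, 0.220%, 0.331% and 0.410%. ATM-deficient libraries held 7, 13 and 4 (0.319%, 0.479% and 0.209%), and KU55933 libraries 11, 14 and 17 (0.305%, 0.258% and 0.303%). The shares of these 3 groups overlapped. Libraries labelled WT under RP105 held 0, 5 and 7 (0, 0.523% and 0.280%) and those labelled ATM-deficient 1, 0 and 1 (0.171%, 0 and 0.0865%).

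Most D-J junctions lay at the J end. The first 10 kb held 75 (81.5%), and the first 200 bases alone held 35, of which 32 were on the plus strand, the strand on which prey runs from the junction towards higher coordinates. Of those 32, 26 ended at base 114665023, at a GGCC, which is the recognition sequence of HaeIII, the enzyme used to cut the DNA for library preparation. The part of this site in the grouping was not tested. The first 200 bases gave 5 junctions in WT (all in replicates 3 and 4), 10 in ATM-deficient and 19 in KU55933 libraries, against 1 and 0 under RP105. The interval boundary cuts through this grouping: the nearest junction outside it was at 114664838, the nearest inside at 114664843, and the 200 bases before the boundary held 26 junctions, 17 of them labelled Smu, the donor switch region. Junctions thus ran on without a break from the Smu label into the first bases counted here as D-J.

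Within these 200 bases, which held 32 plus-strand junctions, plus-strand groupings of 3 or more junctions inside 10 bases occurred at 7 places. Whether that is more than this density alone would give was not tested. The fullest, 114664951 to 114664960, held 7 junctions from 6 libraries: 1 WT, 3 ATM-deficient and 3 KU55933. The next, 114664867 to 114664876, held 4 from 4 libraries, 1 of them from RP105.

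A further grouping lay on the minus strand at JH4, the last heavy chain J segment before Smu. It comprised 4 junctions from 4 libraries between 114666767 and 114666770, 2 from ATM-deficient and 2 from KU55933 libraries. The JH4 stretch printed above holds 6 on the minus strand and 1 on the plus strand, the latter from the library labelled WT RP105 replicate 3. Those at 114666770 and, on the minus strand, at 114666779 are the J parts of the 2 reads shown next, in which the break was joined to a V segment and not to JH4.

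In 2 KU55933 reads the JH4 part followed a V segment, so the read ran from the break through an assembled V-D-J exon. In replicate 1, a V part ended 13 bases before JH4, and in replicate 2 another ended 18 bases before it. The reads are shown from up to 120 bases before the end of the V part, with the unaligned bases between V and J in capitals. The V parts align at chr12:116805362-116805469 and chr12:114974323-114974580, and the J parts at chr12:114666715-114666770 and chr12:114666719-114666779, all on the minus strand.
Replicate 1: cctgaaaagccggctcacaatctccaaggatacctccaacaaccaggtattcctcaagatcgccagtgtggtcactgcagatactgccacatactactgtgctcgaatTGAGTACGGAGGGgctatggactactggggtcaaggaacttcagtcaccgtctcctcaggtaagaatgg
Replicate 2: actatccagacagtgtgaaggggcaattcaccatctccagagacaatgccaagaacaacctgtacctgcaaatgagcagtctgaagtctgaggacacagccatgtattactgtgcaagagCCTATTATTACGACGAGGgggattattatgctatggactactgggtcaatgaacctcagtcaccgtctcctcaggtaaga
In both, the row counted as an Igh V junction and the row counted as a D-J junction describe 1 molecule. In all, 8 rows of the 327 came from 6 reads with more than 1 row (2.45%, against 2.01% of all rows outside chromosome 15).

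Beyond 10 kb, 17 junctions remained: 0 in WT, 4 in ATM-deficient and 7 in KU55933 libraries under anti-CD40/IL4, and 5 and 1 in libraries labelled WT and ATM-deficient under RP105. The 0 in WT allows a share of up to 0.0673%, above the pooled 0.0587% of ATM-deficient and 0.0478% of KU55933 libraries. Pooled over all libraries, this stretch, chosen after its values were seen, was 12.9 times as dense as the rest of the genome. The fullest 10 kb windows after the first were chr12:114704839-114714838 with 5 junctions and chr12:114714839-114724838 with 4. The last junction of the region, at 114783335, was the only one with a gene name in the files, Adam6a.

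D-J junctions also leaned to the plus strand, with 71 plus and 21 minus. In the 8 libraries with at least 5 of them, the plus share exceeded that of the other junctions outside chromosome 15 by 29.5 ± 13.7 percentage points (SD, n = 8), in 8 of 8 (exact sign-flip permutation p = 0.00781, 0.0156 adjusted over 2 regions). Without the first 200 bases the excess was 19.6 ± 21.5 points (SD), over the 6 libraries that still held at least 5 junctions, and above 0 in 5 of them (exact permutation, adjusted p = 0.188). With 6 libraries the exact p cannot go below 0.0312, which is 0.0625 after adjustment beside the Igk value, so the call could not be kept at that number. The exact permutation p was 0.0938 before adjustment, which is above that limit, and the mean excess was smaller than with those bases. Over all alternatives the adjusted p ranged from 0.00586 to 0.188. In Igk the difference was 1.08 ± 21.0 points (SD, n = 10, exact permutation adjusted p = 0.908).

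**Figure D2:**
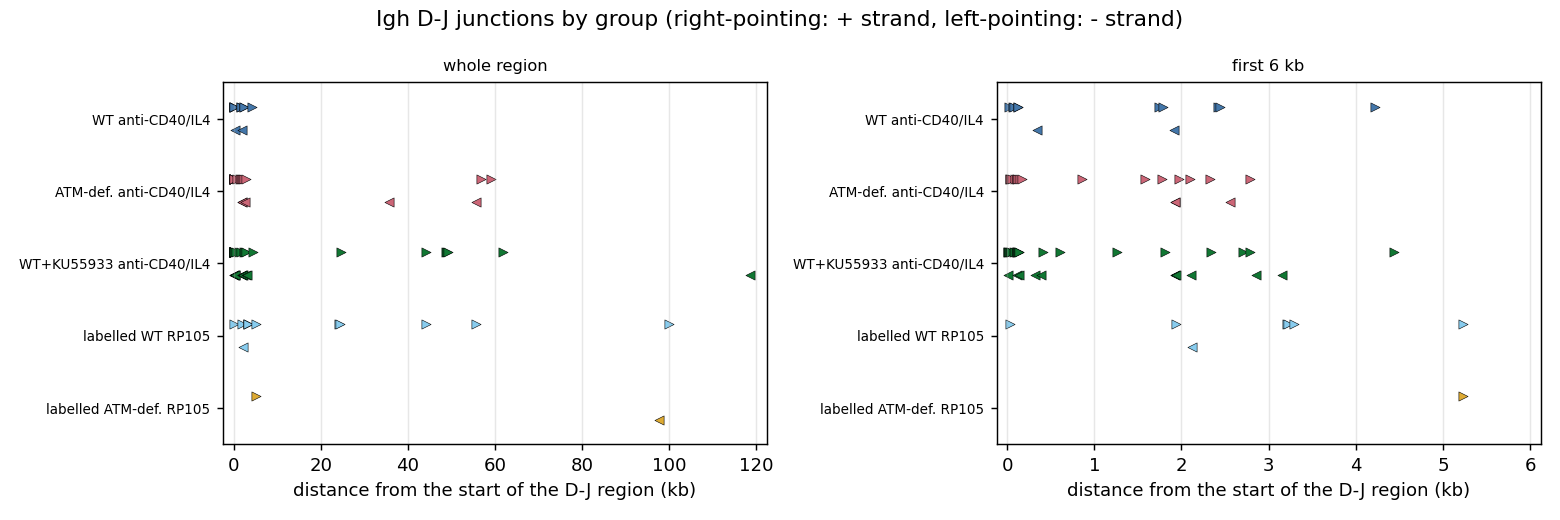
Igh D-J junctions by distance in kb from the start of the region (x axis), one row per group, for the whole region (left) and its first 6 kb (right). Triangles that point right are plus-strand and those that point left minus-strand junctions. The symbols of the 3 anti-CD40/IL4 groups pile up in the first 200 bases, where 34 of the 35 junctions belong to them.

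Igh V, the interval of the V segments, held junctions at about the density of the rest of the genome. Its 37 junctions stood against 31.0 at that density, and the log2 ratio was 0.21 ± 0.92 (SD, n = 16), above 0 in 10 of 16 libraries (exact sign-flip permutation p = 0.371). WT libraries held 0, 0, 2 and 1, ATM-deficient 1, 3 and 2, KU55933 4, 11 and 5, and libraries labelled WT and ATM-deficient under RP105 3, 0 and 4, and 1, 0 and 0. Shares ran from 0 to 0.203% and overlapped between all groups. A library with 0 of its junctions here allows a share of up to 0.230% to 0.403%, so smaller differences were not detectable at this depth.

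Junctions were spread over the whole V interval. Cut into 3 equal parts from the D-J side outwards, it held 10, 14 and 13, and 33 of 256 windows of 10 kb held any. The fullest windows, chr12:114833336-114843335 and chr12:117043336-117053335, held 3 each. In the latter, 2 were from the library labelled WT RP105 replicate 1, at 117053201 and 117053205. Strands were even, with 17 plus and 20 minus.

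Igk held the most junctions of the 4 regions. It was denser than the rest of the genome, with a log2 ratio of 1.48 ± 1.34 (SD, n = 16), above 0 in 14 of 16 libraries (exact sign-flip permutation p = 0.00146, 0.00195 adjusted). With a pseudocount of 0.1 in place of 0.5 the ratio was 1.10 (exact permutation, adjusted p = 0.101), and without the RP105 libraries 1.32 (0.0573). With observed minus expected junctions, which needs no pseudocount, the mean was 7.90 per library (exact permutation, adjusted p = 0.00110). The range of adjusted p over alternatives was 0.000244 to 0.101.

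In Igk, WT libraries under anti-CD40/IL4 had 6, 5, 11 and 0 junctions (0.459%, 0.549%, 0.729% and 0). ATM-deficient libraries held 6, 6 and 0 (0.274%, 0.221% and 0), and KU55933 libraries 21, 48 and 28 (0.582%, 0.884% and 0.4996%). All inhibitor libraries lay above all ATM-deficient ones, and the WT libraries spanned both. The 2 libraries at 0, WT replicate 4 and ATM-deficient replicate 3, came from 1 sequencing run, and a count of 0 there allows up to 0.410% and 0.157%. Under RP105, libraries labelled WT held 9, 3 and 18 (0.554%, 0.314% and 0.721%) and those labelled ATM-deficient 2, 2 and 4 (0.341%, 0.269% and 0.346%).

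Within Igk, the J and C segments stood apart. The files name Jk1 to Jk5, the J segments, and Ck, the constant exon, and the stretch between the first Jk1 and the last Ck junction (chr6:70672618-70677368, 4.75 kb) held 67 of the 169 junctions, from a locus of 3.52 Mb. The fullest 10 kb window of Igk, chr6:70667836-70677835, held 78 junctions of 12 libraries, and the next, chr6:70657836-70667835, held 6. Of names with at least 5 junctions, Jk5 had 7, the Jk5-Ck intron 6, the 5′ edge of Ck 6 and Jk4 5. Names were given unevenly between libraries. WT anti-CD40/IL4 replicate 2 junctions at 70673909 and 70673941 had none, though they lie among those named Jk5, of which 6 were from KU55933 libraries. The counts by name therefore follow the naming and are no comparison of groups. The Jk5 stretch printed above holds 9 junctions, with 3 minus-strand ones from 3 libraries between 70673909 and 70673917. The J-C segment had 34 plus and 33 minus junctions by strand, which is an even split.

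The place of the Igk junctions is given here by group. WT anti-CD40/IL4 libraries had 15 of 22 in the J-C segment (68.2%, 95% exact binomial interval 45.1 to 86.1), by library 3, 3, 9 and 0. ATM-deficient libraries had 6 of 12 (50%, 21.1 to 78.9), as 4, 2 and 0, and KU55933 libraries 44 of 97 (45.4%, 35.2 to 55.8), as 13, 20 and 11. Libraries labelled WT under RP105 had 0 of 30 (95% exact binomial interval 0 to 11.6; a floor of 3 junctions allows a share of up to 10%), and those labelled ATM-deficient 2 of 8 (25%, 3.19 to 65.1). These intervals cover counting error only, and the J-C segment was singled out after its values were seen, so no test was made.

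On the V side of Jk1, libraries labelled WT under RP105 instead had 28 junctions, 9, 3 and 16 by library (0.503% ± 0.170, SD, n = 3), and KU55933 libraries 50, as 8, 25 and 17 (0.328% ± 0.121, n = 3). WT anti-CD40/IL4 libraries had 5 (0.110% ± 0.0965, n = 4), ATM-deficient ones 4 (0.0521% ± 0.0555, n = 3) and libraries labelled ATM-deficient under RP105 5 (0.188% ± 0.0644, n = 3). The V side was 4.15 times as dense as the rest of the genome in libraries labelled WT under RP105 and 2.80 times in KU55933 libraries, but 0.955 and 0.462 times in WT and ATM-deficient libraries under anti-CD40/IL4. It was 1.51 times as dense in libraries labelled ATM-deficient under RP105, on 5 junctions.

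**Figure D3:**
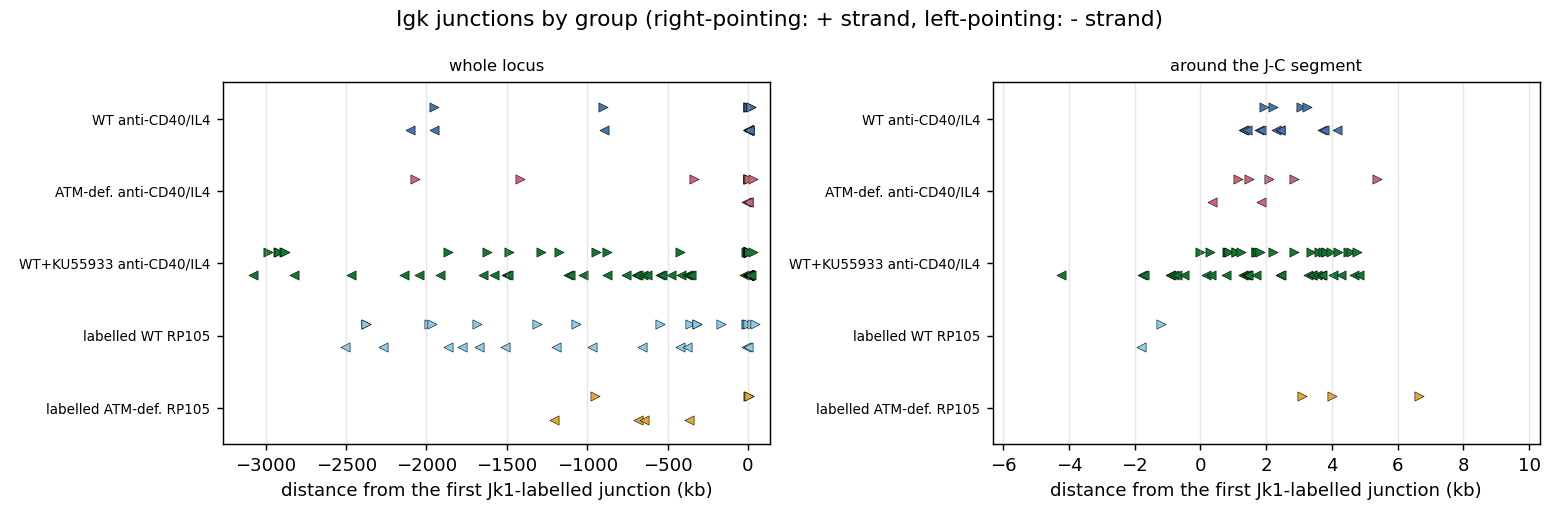
Igk junctions by distance in kb from the first junction labelled Jk1 (x axis), one row per group, for the whole locus (left) and around the J-C segment (right). Triangles that point right are plus-strand and those that point left minus-strand junctions. The row of the libraries labelled WT under RP105 is filled along the V side and has 0 junctions in the J-C segment.

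Igl, the small lambda locus, held 29 junctions, against 11.7 at the density of the rest of the genome. Its log2 ratio was 1.26 ± 0.97 (SD, n = 16; exact sign-flip permutation p = 0.000366, 0.000732 adjusted), but 7 of 16 libraries had 0 junctions and there the pseudocount set the value. With a pseudocount of 0.1 the ratio was 0.10 (exact permutation, adjusted p = 0.835), and with observed minus expected junctions the mean was 1.08 per library, above 0 in 9 of 16 (exact permutation, adjusted p = 0.0538). The adjusted p ranged from 0.000244 to 0.835 over the alternatives, so the excess in Igl depends on how libraries at 0 are treated.

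WT anti-CD40/IL4 libraries held 1, 0, 1 and 0 Igl junctions, ATM-deficient 0, 2 and 0, and KU55933 6, 7 and 5 (0.166%, 0.129% and 0.0892%). Libraries labelled WT under RP105 held 1, 2 and 4 (0.0616%, 0.209% and 0.160%) and those labelled ATM-deficient 0, 0 and 0. All 3 inhibitor libraries lay above all WT and all ATM-deficient ones under anti-CD40/IL4. The window chr16:19056908-19066907 held 11 of the 29 from 7 libraries. The next fullest, chr16:19026908-19036907 and chr16:19066908-19076907, held 3 each. In 3 equal parts the locus held 22, 7 and 0.

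**Figure D4:**
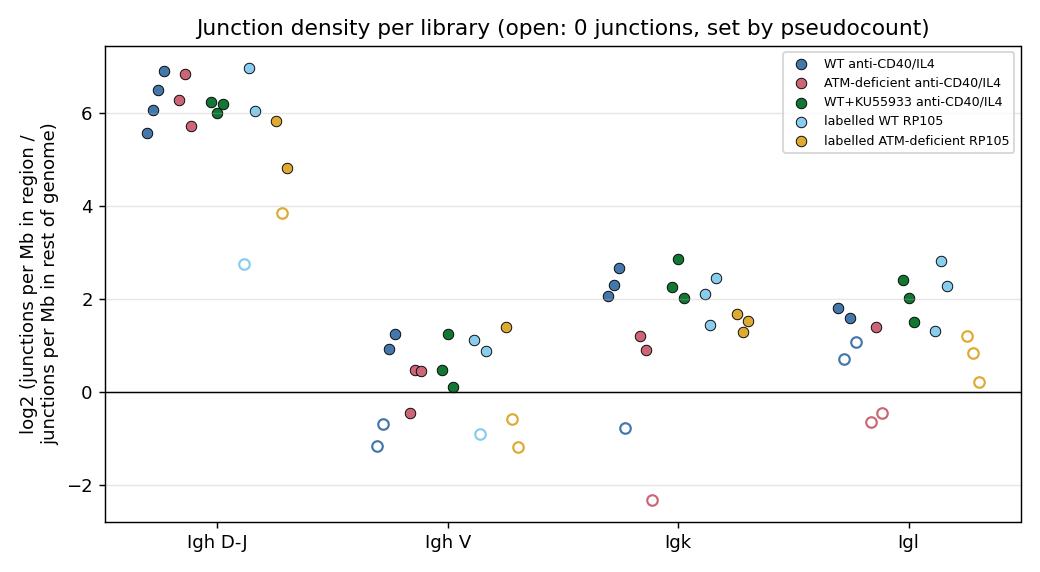
Log2 ratio of junctions per Mb in each region to junctions per Mb in the rest of the genome (y axis) for the 16 libraries, coloured by group. Open circles are libraries with 0 junctions, whose position is set by the pseudocount of 0.5. Igh D-J lies above 0 in 16 of 16 libraries, where the pseudocount alone would put each of them. Of its circles 2 are open, and 7 of the 16 Igl circles are open.

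Group comparisons used edgeR's quasi-likelihood test on junction counts of the 29 features into which the genome outside chromosome 15 was divided, with Benjamini-Hochberg adjustment over all of them and a threshold of 0.05. Some groups fell below the floor of 3 junctions. Igl held 2 in WT and 2 in ATM-deficient anti-CD40/IL4 libraries. Libraries labelled ATM-deficient under RP105 held 2 in Igh D-J, 1 in Igh V and 0 in Igl. Log2 values here and further on that use these groups, with the interaction values of Igh D-J and Igh V, rest on counts below the floor. The first comparison, under anti-CD40/IL4, set ATM-deficient against WT cells. No region passed (0 of 4 in edgeR, 1 at an unadjusted p under 0.05, 0 in DESeq2), where 6.9% of all features did. Igk had a log2 fold change of -1.45 (SE 0.64, edgeR adjusted p = 0.308), Igh D-J 0.37 (SE 0.60), Igh V 0.36 (SE 1.07) and Igl -0.53 (SE 1.36). The median was -0.08 over the 4 regions and 0.00 over all features. Within the run shared by WT replicate 3 and ATM-deficient replicate 2, Igk held 0.729% and 0.221%, and in the other shared run both libraries had 0.

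KU55933 against no inhibitor in WT cells gave positive values that did not pass: Igl 1.35 (SE 0.96), Igh V 0.96 (SE 0.89), Igk 0.43 (SE 0.44) and Igh D-J 0.09 (SE 0.56). The Igl value rests on 2 junctions in the WT group, below the floor. EdgeR called 0 of 4, with 0 at an unadjusted p under 0.05 and 0 in DESeq2, against 10.3% of all features. The median was 0.69 for the regions and 0.04 over all features.

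ATM-deficient cells against inhibited WT cells gave the one call. Igk was lower in ATM-deficient libraries, with means of 0.165% ± 0.145 and 0.655% ± 0.202 (SD, n = 3 each) and a log2 fold change of -1.88 (SE 0.50, edgeR adjusted p = 0.0112). This was 1 of 4 regions, also in DESeq2, against 10.3% of all features. Without KU55933 replicate 2, the library with 48 Igk junctions, the value was -1.57 (edgeR adjusted p = 0.0853), and over all alternatives the adjusted p ranged from 0.000817 to 0.0853. Igl had the same fold change, -1.88, with a wider error (SE 0.90, edgeR adjusted p = 0.147). Igh V had -0.60 (SE 0.72) and Igh D-J 0.28 (SE 0.46). Sequencer and treatment are confounded in both comparisons with the inhibitor and cannot be told apart.

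Under RP105, by label, ATM-deficient against WT gave Igk -0.85 (SE 0.70), Igh D-J -1.49 (SE 1.11) and Igh V -1.63 (SE 1.41). The Igh D-J and Igh V values rest on 2 and 1 junctions in the group labelled ATM-deficient, below the floor. None passed (0 of 4 in edgeR, 1 at an unadjusted p under 0.05, 0 in DESeq2), against 13.8% of all features. Igl was at 0 in all 3 libraries labelled ATM-deficient. With a floor of 3 junctions over that group of 2486, a count of 0 allows a share of up to 0.121%. The libraries labelled WT pooled to 7 of 5076 (0.138%), and their replicate 1 lay below that limit at 0.0616%. A fold for Igl between the labels is therefore not given (edgeR adjusted p = 0.229). Within the runs shared by both labels, Igk held 0.314% against 0.341% and 0.269% in the first, and 0.721% against 0.346% in the second.

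RP105 against anti-CD40/IL4, in which stimulus, infection time and harvest day differ along with the sequencer, gave 0 of 4 calls in cells labelled WT (0 at an unadjusted p under 0.05, 0 in DESeq2) against 13.8% of all features. That the genotype is the same on both sides rests on the RP105 label. The log2 fold changes were 1.503 (SE 1.08) for Igl, 0.97 (SE 1.03) for Igh V, 0.25 (SE 0.53) for Igk and -0.18 (SE 0.69) for Igh D-J. The Igl value rests on 2 junctions in the WT anti-CD40/IL4 group, below the floor. The Igh constant and switch part, which adjoins D-J, fell, with a log2 fold change of -3.30 (SE 0.20, edgeR adjusted p = 6.77e-15); the difference between the 2 intervals was not tested. In cells labelled ATM-deficient 0 of 4 passed in edgeR (1 at an unadjusted p under 0.05, 0 in DESeq2), again against 13.8%. Igh D-J had -2.04 (SE 0.99, edgeR adjusted p = 0.203), Igh V -1.02 (SE 1.48) and Igk 0.85 (SE 0.85). The RP105 group was below the floor in Igh D-J and Igh V, with 2 and 1 junctions. Igl has no fold here, since both groups are below the floor, with 0 junctions under RP105 and 2 under anti-CD40/IL4.

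The interaction subtracts the genotype difference of anti-CD40/IL4 cells from the labelled one of RP105 cells. It passed in 0 of 4 regions by edgeR and DESeq2 (0 at an unadjusted p under 0.05), against 10.3% of features. The value was 0.60 (SE 0.99) for Igk, -1.86 (SE 1.27) for Igh D-J and -1.99 (SE 1.79) for Igh V.

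Tests of the shares themselves could not pass at these group sizes: with 4 against 3 libraries the two-sided exact permutation p cannot go below 0.0571, and with 3 against 3 not below 0.1. The smallest p adjusted over the 24 tests was 0.48. Groups did not overlap in 5 of the 24. These were Igk and Igl for ATM-deficient against KU55933 (27.6% of all features did not overlap there), Igl for KU55933 against WT (24.1%), Igl between the labels under RP105 (17.2%), and Igh D-J for RP105 against anti-CD40/IL4 in cells labelled ATM-deficient (27.6%).

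**Figure D5:**
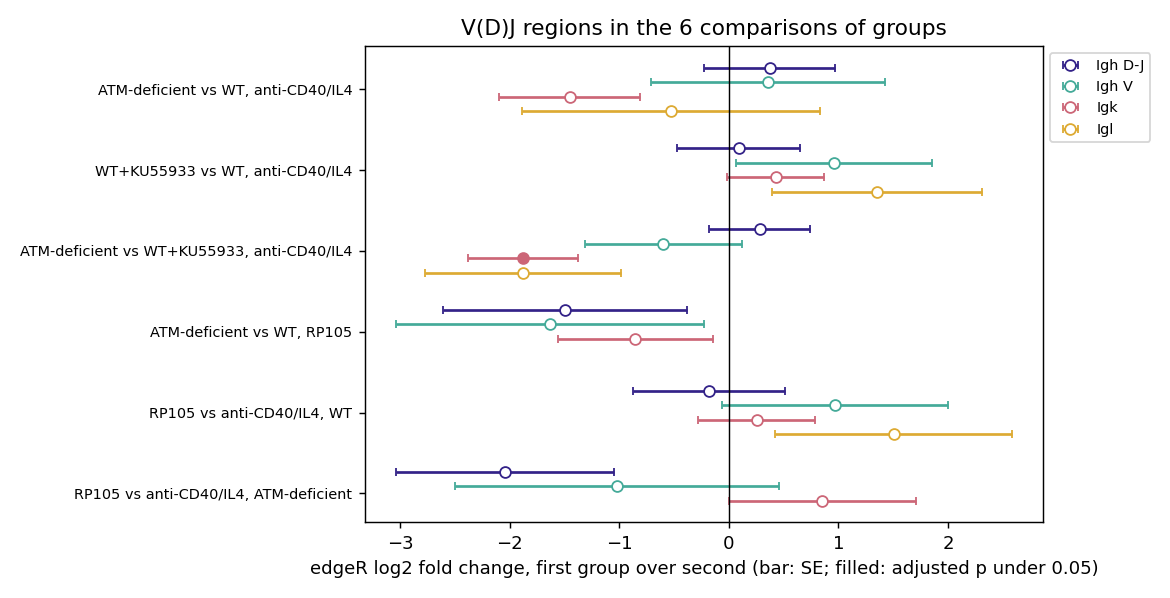
EdgeR log2 fold change, first group over second (x axis), with SE bars, for the 4 regions in the 6 comparisons of groups (rows). Filled symbols passed an adjusted p of 0.05, which holds for Igk in ATM-deficient against KU55933 libraries at -1.88. Igl is not drawn in the 2 comparisons with the libraries labelled ATM-deficient under RP105, where it was at 0.

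The T cell receptor loci, which B cells do not rearrange, are given for comparison. Tra/Trd held 10 junctions in 2.01 Mb, Trb 4 in 1.17 Mb and Trg 4 in 1.11 Mb over all 16 libraries, against 169 in the 3.52 Mb of Igk and 37 in the 2.56 Mb of Igh V. The part of chromosome 12 telomeric of Igh held 46, of which 29 were in KU55933 libraries. These libraries also held 14642 of the 33479 junctions outside chromosome 15. There the log2 fold change was 1.09 (SE 0.70, edgeR adjusted p = 0.431) for KU55933 against WT. For ATM-deficient against KU55933 it was -1.36 (SE 0.63, edgeR adjusted p = 0.147).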

How the data were processed

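Junction lists of 16 libraries were used. The authors deposited 1 junction per row with prey coordinates on mm9, per the submitters' processing notes; the aligner is not given in the sources used here. Per the file headers, older files hold a count of PCR reads per junction and all hold an alignment score; neither was used. After dropping 56 identical rows, 3 mitochondrial rows and 1 broken record, 141167 junctions remained. Each row counted once. Tests used edgeR 4.0.16 in R 4.3.3 on counts of 29 features, all 16 libraries in the fit, group as the only term and junctions outside chromosome 15 as library size. EdgeR was also run on simulated data with the spread taken from these same libraries, and no statement here rests on that outcome. Shares, densities and strands were compared by exact permutation with scipy 1.17.1. The sequencing run came from read names. Genome letters came from the target sequences in the files, 711088 positions of chromosomes 6, 12 and 16 with 0 conflicts. The regions, windows of 10 kb, labels with at least 5 junctions and positions with 3 or more junctions within 10 bases or in more than 1 library were named by rule; regions and rules were chosen with earlier results of these data known. The J-C segment, the first 200 bases of D-J and its part beyond 10 kb were chosen after seeing values. Alternatives were TMM, DESeq2 1.42.0, other library sizes, distinct positions, a filter on features, blocks, wider loci, CA-repeat starts removed and left-out libraries.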

Additional observations from a re-analysis of the deposited data

How the results depend on the processing

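Few junctions limit every value: 37 in Igh V and 29 in Igl give wide errors. The count of regions called stayed the same in edgeR and DESeq2 alternatives except with loci widened by 100 kb, which brings switch junctions into Igh D-J and called 1 of 4 for ATM-deficient against WT, 2 for ATM-deficient against KU55933 and 1 each for RP105 against anti-CD40/IL4. Leaving out 1 library, the count for ATM-deficient against KU55933 ranged from 0 to 1. With widened loci Igh D-J turned to -0.86, -0.16 and -0.70 in the anti-CD40/IL4 comparisons and 0.72 in the interaction, and Igl to 0.34 for ATM-deficient against WT. Of results that never passed, Igh D-J for KU55933 against WT turned to -0.10 with only the 1 Mb around the break removed, -0.0065 without the first 200 bases and -0.012 with single-row reads, and Igh D-J for RP105 in WT to 0.44 without those bases. Igk for RP105 in WT turned to -0.15 with only that 1 Mb removed. With the run as a block Igh V and Igl for ATM-deficient against WT turned to -0.29 and 0.13. With all junctions as denominator, share differences turned to 0.0105, -0.0174 and 0.00128 points (Igh D-J in RP105 WT, Igk in RP105 ATM-deficient, Igl in ATM-deficient against WT).

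Whether the replicate numbers pair libraries is not settled: 9 of 30 same-numbered pairs correlated above 0.1 (range -0.51 to 0.44). Differently numbered pairs were not compared, so these values cannot decide it. With the replicate number as a block, Igk for ATM-deficient against KU55933 was -1.96 (edgeR adjusted p = 0.0478), Igk for RP105 in WT turned to -0.063, and no call changed.

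Density of Igh V turned to -0.68 with a pseudocount of 0.1 and -0.29 against the same chromosome. Igk was -0.077 and Igl 0.10 in ATM-deficient anti-CD40/IL4 libraries alone, Igk 1.10 and Igl 0.10 with a pseudocount of 0.1, and Igk 1.32 without RP105. As observed minus expected, which is a count of junctions and not a log2 ratio, Igl had a mean of 1.08 junctions per library. The plus-strand excess of Igh D-J was 19.6 points without its first 200 bases and 25.6 without RP105, each over 6 libraries in place of 8, where the adjusted exact p cannot go below 0.0625. That of Igk was -5.48 with at least 3 junctions per library, -1.56 without RP105, and -4.34 to 3.85 without 1 library.

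Without 1 library at a time, log2 values crossed 0 for Igh D-J (-0.0085 to 0.58 for ATM-deficient against WT, -0.14 to 0.26 for KU55933 against WT, -0.098 to 0.49 for ATM-deficient against KU55933, -0.66 to 0.38 for RP105 in WT), Igh V (-0.11 to 1.23 for ATM-deficient against WT) and Igk (-0.081 to 0.65 for RP105 in WT). Share differences crossed 0 in the same way for Igh D-J (-0.014 to 0.121, -0.032 to 0.054, -0.024 to 0.110 and -0.138 to 0.123 points, in the same order), Igh V (-0.0029 to 0.043), Igk (-0.049 to 0.203) and Igl in ATM-deficient against WT (-0.036 to 0.0025). The RP105 exclusion, single-row reads, the removed bases, the pseudocount-free density and left-out libraries for density and strand were chosen after seeing the data.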
